A study of Mus musculus with 14 samples.

Results

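Albumin, alpha-fetoprotein and 6 further genes of plasma carrier proteins made by hepatocytes were followed through all libraries of the study. The genes were listed by name, with earlier results of these data known, and are *Alb*, *Afp*, *Ttr*, *Ahsg*, *Rbp4*, *Gc*, *Ambp* and *Vtn*. All 8 were found among the 28022 genes of the deposited count table, and reads were counted in 14 RNA-seq libraries from 7 conditions with 2 libraries each. Induced hepatic stem cells (iHepSCs) are mouse embryonic fibroblasts converted with lentiviral *Oct4* and *Hnf4α*, and induced endothelial cells (iECs) are human HF1 fibroblasts converted with *ETV2*. The culture conditions were iHepSCs on a flat surface (2D-iHs, labelled 2D-iHepSC), iHepSCs with iECs on a flat surface (2D-iHEs, labelled 2D-iHepSCiEC), organoids of iHepSCs alone in a hydrogel (iHLOs, labelled 3D-iHA) and assembloids of iHepSCs with iECs in the same kind of hydrogel (iHEAs, labelled 3D-iHEA). The references were fibroblasts, adult liver and mid-gestation fetal liver, and every sample was labelled C57BL/6J. All 4 kinds of culture held cells that carried both conversion factors, and counts of *Hnf4a* may include transgene transcripts. The hydrogel was made of type I collagen and Matrigel, and per the study's text the 4 kinds of culture shared a medium with oncostatin M. Human reads from the iECs enter the counts solely through alignment to mouse genes. The labels do not say whether the libraries of a condition came from separate animals or cultures, so p-values measure the spread between these libraries, which may be technical.

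The liver releases most carrier proteins of the blood. Albumin holds the osmotic pressure of plasma and carries fatty acids, and alpha-fetoprotein is its fetal relative, silenced in the liver after birth. *Alb*, *Afp* and *Gc* belong to the same gene family on the same chromosome, where *Alb* and *Afp* are adjacent and other genes lie between *Gc* and *Alb*. The other members encode carriers of thyroid hormone and retinol, a fetuin, a precursor cleaved into a lipocalin and a protease inhibitor, and an adhesive glycoprotein. In hepatocytes these genes are switched on by liver-enriched transcription factors such as C/EBP, FOXA and HNF4.

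In the GRCm38 annotation (GENCODE release 21), *Gc* lies at chr5:89417522-89457898 on the minus strand, *Alb* at chr5:90460897-90476602 and *Afp* at chr5:90490737-90508907, both on the plus strand. *Alb* and *Afp* are separated by 14135 bases, and *Afm*, the afamin gene, follows *Afp* after 10025 bases. Of the other members, *Ahsg* (chr16:22891277-22899449) and *Vtn* (chr11:78499091-78502324) lie on the plus strand, and *Rbp4* (chr19:38116629-38125281) and *Ambp* (chr4:63143275-63154799) on the minus strand. Antisense genes are annotated over *Afp* (Gm43449) and *Ahsg* (Gm30505), and since the treatment of strand in the counting is not given in the sources used here, reads of these pairs cannot be told apart.

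The promoters of the 3 albumin family members are shown because these relatives differed in the cultures, as described for each gene. Each line gives the 150 bases before the RefSeq transcription start (build GRCm38.p6), 5′ to 3′ on the strand of the gene, and capitals mark the letters GTTAAT, 1 of the motifs searched on both strands. The windows are chr5:90460720-90460869 for *Alb*, chr5:90490564-90490713 for *Afp* and chr5:89457899-89458048 for *Gc*.
*Alb*: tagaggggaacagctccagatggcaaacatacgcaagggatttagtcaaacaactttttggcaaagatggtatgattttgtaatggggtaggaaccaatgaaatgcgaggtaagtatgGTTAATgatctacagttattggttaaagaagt
*Afp*: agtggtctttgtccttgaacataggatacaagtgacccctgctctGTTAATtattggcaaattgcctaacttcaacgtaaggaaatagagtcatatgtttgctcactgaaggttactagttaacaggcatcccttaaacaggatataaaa
*Gc*: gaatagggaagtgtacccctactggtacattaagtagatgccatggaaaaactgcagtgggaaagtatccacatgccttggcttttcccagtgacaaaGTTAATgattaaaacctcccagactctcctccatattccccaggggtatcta
RefSeq windows from 250 bases before to 50 after the start were found for 7 of the 8 members, with 8 windows in all because *Rbp4* had 2. GTTAAT was present on either strand in 4 of the 8 windows (*Alb*, *Afp*, *Gc* and *Vtn*), and in 7.1% of the 32851 windows of all genes. TTGCNNAA, a C/EBP motif, was present in 4 of the 8 (*Alb*, *Afp*, *Ahsg* and *Rbp4*), against 10.8% of all windows. TGTTTAC, a FOXA motif, was in 1 member window (*Rbp4*) and 3.65% of all, and CAAAGTNCA, an HNF4 motif, was in 0 of the 8 and 1.41% of all. In *Alb* the GTTAAT match began 32 bases before the RefSeq start, in *Gc* 52 and in *Afp* 105 bases before it. The RefSeq starts of *Alb* and *Afp* lie upstream of their GENCODE starts and that of *Gc* does not, so the distances depend on the annotation. These matches describe the letters only and show no binding.

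The libraries held 20851489 to 35143325 counts, and levels are given as CPM (counts scaled to 1000000 per library). At these depths 3 counts, taken here as the floor of detection, correspond to 0.0854 to 0.144 CPM. Exact intervals of summed counts and floors cover counting error only, whereas intervals of log2 differences from the edgeR fits also hold the spread between libraries. The labelled tissues were checked by marker genes. All 15 adult hepatocyte markers were above the floor in adult liver and all 5 hepatoblast markers in fetal liver, where the 7 erythroid markers also summed to 38713 to 38783 CPM. In at least 1 library, 10 of the 15 adult hepatocyte markers passed the floor in 2D-iHs, 1 in 2D-iHEs, 5 in iHLOs and 3 in iHEAs, with a summed level of 387 to 934 CPM carried mainly by *Apob*, while the cholangiocyte markers summed to 1236 to 1771 CPM. In 2D-iHs, *Cyp3a11*, *Cyp2e1*, *Pck1*, *Hpd*, *Serpina3k* and *Apoc1* passed the floor in library 1 alone. The fibroblast markers summed to 3.16 to 14.6 CPM in the cultures and 28929 to 30656 CPM in fibroblasts. In bulk libraries, fewer cells of a type and less RNA per cell cannot be told apart. The composition factors of edgeR (TMM) were 0.429 and 0.438 in adult liver against 1.11 to 1.20 elsewhere, so log2 fold changes from the fits against adult liver differ from ratios of CPM. Percentages of liver levels and folds against the floor are ratios of CPM without these factors. Scaling by total counts instead moved the median log2 fold change of all genes from -0.10 to -1.52 between adult and fetal liver, and no member changed direction.

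**Figure D1:**
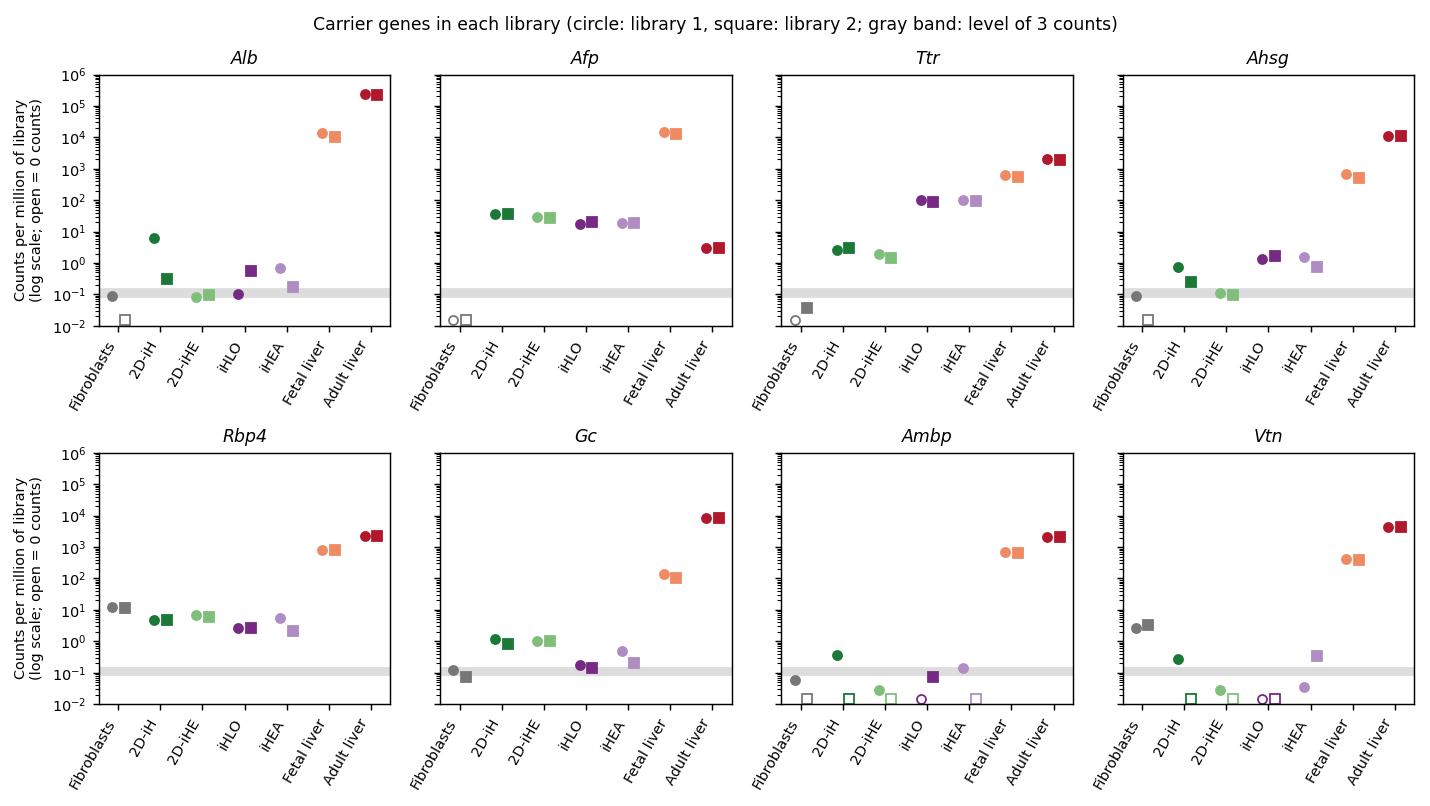
Level of each of the 8 genes in each library, in CPM on a log scale, with the 7 conditions on the horizontal axis. Circles and squares are the 2 libraries of a condition, open symbols are 0 counts and the gray band is the level of 3 counts. *Ttr* separated the 3D libraries (88.5 to 101 CPM) from the 2D libraries (1.49 to 3.05 CPM), whereas *Alb* was at 6.36 CPM in a single 2D-iH library and at most 0.698 CPM in the other culture libraries.

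Library 1 of 2D-iHs stood apart, since it held counts of adult hepatocyte genes that were nearly silent in all other cultures. Of the 15 adult hepatocyte markers, 10 had at most 3 counts in each of the other 7 culture libraries, a subset defined from the counts and given as a description. These 10 genes together had 98 counts in library 1, with 9 of them detected, and 0 to 6 counts in each of the other libraries. Among them *Serpina3k*, a liver serpin gene, had 40 counts and *Cyp2e1*, which encodes an ethanol-oxidizing cytochrome, had 19. Relative to adult liver the median level of the 10 genes in library 1 was 122 ppm (CPM as parts per 1000000 of that in adult liver), and *Alb* was at 27.6, *Vtn* at 63.5, *Ahsg* at 70.2 and *Ambp* at 174 ppm. Of the hemoglobin genes that were high in fetal liver, *Hbb-bs* had 1 count, *Hbb-bt* and *Hba-a2* had 0 and *Hba-a1* had 4 in library 1, and *Hba-a1* had 0 to 6 counts in the other culture libraries. Among the fibrinogen genes, *Fgb* and *Fgg* had 22 and 23 counts in library 1 and at most 5 in any other culture library. *Fga* had 43 counts in library 1 but also 73 in library 2 of iHLOs and 26 in library 1 of iHEAs. How these transcripts came into the library was not tested, and where *Alb*, *Ahsg*, *Ambp* or *Vtn* was tested against 2D-iHs, what remained without it is given beside the result.

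**Figure D2:**
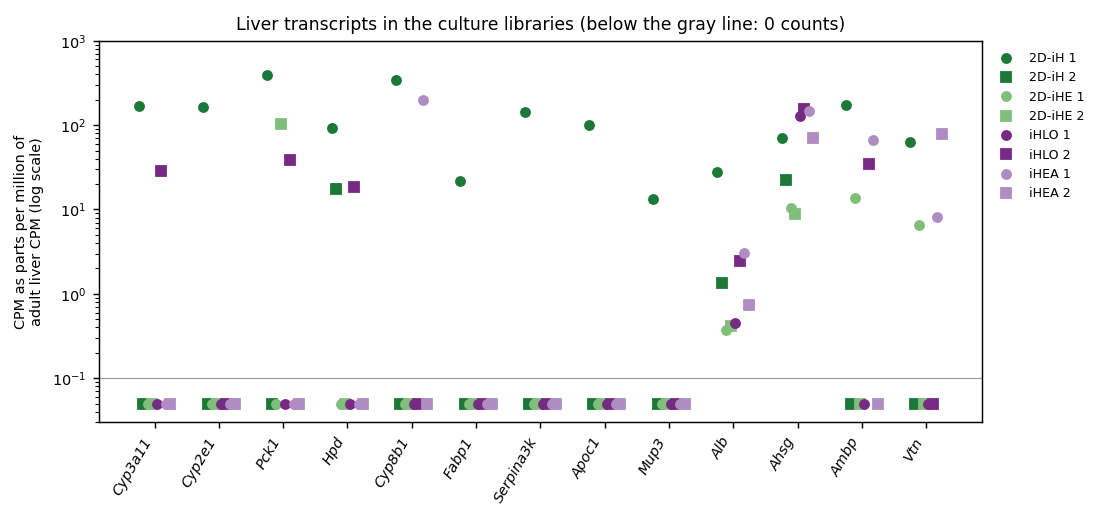
CPM of 9 adult hepatocyte markers and of *Alb*, *Ahsg*, *Ambp* and *Vtn* in the 8 culture libraries, as ppm of the mean adult liver CPM on a log scale, with points below the gray line at 0 counts. *Mup20*, the other quiet marker, had 0 counts in 2D-iH library 1 and 3 counts in iHLO library 2, which is 7587 ppm of its low adult liver level, and is left out. The dark green circles of 2D-iH library 1 stood at 13.4 to 389 ppm for the 9 markers, where most other libraries had 0 counts.

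Adult and fetal liver gave the reference levels for hepatic maturation. All 8 members passed the test between the tissues (edgeR quasi-likelihood test, Benjamini-Hochberg adjusted over 14121 genes), 7 of them higher in adult liver and *Afp* higher in fetal liver. At the same threshold 83.7% of all tested genes were called, so a call by itself was common and the sizes are given. *Alb* was at 236371 and 225251 CPM in the adult libraries and at 13409 and 10577 CPM in the fetal libraries. It was the most counted gene in both adult libraries, with 23.6% and 22.5% of all counts, and ranked 3 and 4 in fetal liver. The fitted difference was 5.72 ± 0.46 on the log2 scale (SE, n = 2 per tissue, edgeR adjusted p = 8.96e-09), and the ratio of mean CPM was 19.2.

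*Afp* had the opposite order. It was at 15099 and 13267 CPM in fetal liver, ranking 2 in both libraries, and at 3.06 CPM in both adult libraries. The groups were far apart, with a log2 difference of -10.73 ± 0.14 (SE, edgeR adjusted p = 2.44e-17) and a ratio of mean CPM of 4639. The fetal libraries held 0.888 and 0.797 *Alb* counts per *Afp* count, against 77268 and 73727 in the adult libraries.

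*Gc*, the vitamin D-binding protein gene, was at 8311 and 8280 CPM in adult liver and 143 and 104 CPM in fetal liver. Its log2 difference of 7.52 ± 0.16 (SE, edgeR adjusted p = 7.75e-16) was the largest of the 7 members that were higher in adult liver. *Ahsg*, which encodes fetuin-A, an inhibitor of mineral precipitation, was at 10657 and 10921 CPM in adult and 690 and 493 CPM in fetal liver, with a log2 difference of 5.64 ± 0.19. *Vtn*, the gene of the adhesive protein vitronectin, was at 4235 and 4353 against 426 and 393 CPM, a log2 difference of 4.84 ± 0.15. In these 3 genes the libraries of the tissues did not overlap.

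The carriers with the smallest differences between the tissues were *Ttr*, *Ambp* and *Rbp4*. *Ttr*, the thyroxine and retinol-binding protein carrier transthyretin, was at 1993 and 1889 CPM in adult and 611 and 529 CPM in fetal liver, a log2 difference of 3.22 ± 0.10. *Ambp*, the gene of the alpha-1-microglobulin and bikunin precursor, was at 2061 and 2111 against 722 and 662 CPM, a log2 difference of 3.04 ± 0.13, and its call was lost with the DESeq2 Wald test (adjusted p = 0.0812) in 1 of 13 fits. *Rbp4*, the plasma retinol carrier, was at 2181 and 2232 against 826 and 781 CPM, a log2 difference of 2.91 ± 0.14. Each of the 3 was higher in both adult libraries than in both fetal libraries. Per kilobase of exon, the order in adult liver ran from *Alb* (98553 CPM per kb) through *Ahsg* (4911) and *Gc* (4496) to *Afp* (0.908), and in fetal liver from *Alb* (5121) and *Afp* (4211) to *Gc* (67.1). *Rbp4* (1643 CPM per kb) and *Ttr* (1636) were neighbours in adult liver and differed by less than the spread of *Ttr*.

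**Figure D3:**
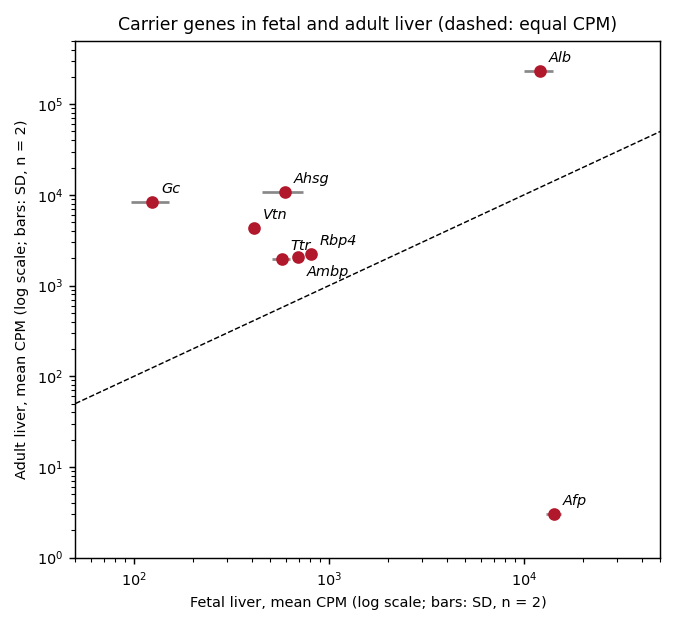
Mean CPM of each gene in fetal liver (horizontal) and adult liver (vertical), both on log scales, with SD bars of the 2 libraries and a dashed line of equal levels. *Afp* lay below the line at 14183 and 3.06 CPM, and the other 7 genes lay above it, from *Rbp4* at 803 and 2206 CPM to *Alb* at 11993 and 230811 CPM.

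Conversion of fibroblasts was followed by comparing 2D-iHs with fibroblasts. Of the 8 members 7 were called, 5 higher and 2 lower in 2D-iHs, where 83.9% of all genes were called. *Afp* had 0 counts in both fibroblast libraries and 1172 and 1096 counts in 2D-iHs (35.5 and 37.6 CPM). *Afp* was thus at least 366-fold higher than in fibroblasts, computed against the floor of 3 counts per library (edgeR adjusted p = 5.85e-14). *Ttr* had 0 and 1 counts in fibroblasts and 85 and 89 counts in 2D-iHs, a ratio of summed counts per total of 170 (95% exact interval 30.1 to 6743, edgeR adjusted p = 1.19e-08). For both genes the 2D-iH libraries agreed closely with each other and lay above the fibroblasts.

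*Gc* rose from 4 and 2 counts in fibroblasts to 40 and 24 counts in 2D-iHs (log2 difference 3.30 ± 0.65, SE, edgeR adjusted p = 0.000221). *Rbp4* and *Vtn* fell. *Rbp4* was at 12.2 and 11.2 CPM in fibroblasts and at 4.85 and 4.83 CPM in 2D-iHs (log2 difference -1.29 ± 0.20, edgeR adjusted p = 2.26e-05). *Vtn* had 88 and 94 counts in fibroblasts and 9 and 0 counts in 2D-iHs (log2 difference -4.35 ± 0.49, edgeR adjusted p = 1.09e-06). Without library 1 of 2D-iHs the remaining library held 0 *Vtn* counts and was called lower (edgeR adjusted p = 2.24e-06), where this single library is assumed to vary like the other groups, as in each fit that leaves 1 library in a condition. Fibroblasts were thus not free of carrier transcripts, since *Rbp4* and *Vtn* were above the floor in both of their libraries, although at 0.531% and 0.0706% of the adult liver level.

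*Alb*, *Ahsg* and *Ambp* differed between the 2 libraries of 2D-iHs. *Alb* had 210 counts in library 1 and 9 in library 2, against 3 and 0 in fibroblasts. *Ahsg* had 25 and 7 counts against 3 and 0, and *Ambp* had 12 and 0 against 2 and 0. Library 1 was the higher in all 3 genes. The calls for *Alb* (log2 difference 5.99 ± 1.49, edgeR adjusted p = 0.00163) and *Ahsg* (3.25 ± 1.13, adjusted p = 0.0147) were lost without library 1, with log2 differences of 2.52 and 2.16 and adjusted p of 0.161 and 0.188, and 5 of the 8 members were then called. *Ahsg* was also lost without library 2 of fibroblasts (2.41, adjusted p = 0.0857). *Ambp* did not pass (2.38, adjusted p = 0.112), with -3.00 without library 1 of 2D-iHs and a call at 3.29 without library 2.

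The 3D and 2D cultures were compared because the study placed the cells in a hydrogel to bring them closer to liver. Each side joined libraries with and without iECs, and the fit had no term for iECs. Its SE therefore also holds differences between these conditions. Of the 8 members, 6 had enough counts to be tested among 13409 genes, and 5 were called, of which 2 rose and 3 fell in 3D. Over all genes 75.9% were called, 38.7% higher and 37.2% lower, so calls alone are common here and the sizes are given for each gene. The median log2 difference of the 6 tested members was -0.82, against 0.01 for all tested genes. Without library 1 of 2D-iHs the same comparison tested 5 members and called 5.

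*Ttr* rose most. It was at 2.58 and 3.05 CPM in 2D-iHs, at 1.91 and 1.49 CPM in 2D-iHEs, at 101 and 88.5 CPM in iHLOs and at 100 and 94.8 CPM in iHEAs. All 4 libraries in 3D lay far above each library in 2D. The log2 difference was 5.37 ± 0.13 (SE, n = 4 per group, edgeR adjusted p = 3.58e-11), and 5.24 to 5.53 over all alternatives. By CPM, mean *Ttr* in 3D reached 16.9% of fetal liver and 4.96% of adult liver, from 0.396% and 0.116% in 2D. With TMM factors the edgeR fit put *Ttr* in iHEAs at -5.82 ± 0.11 (SE) on the log2 scale against adult liver. Per kilobase it became the highest of the 8 members in iHLOs (80.0 CPM per kb) and iHEAs (82.2), ahead of *Afp* (5.46 and 5.58), whereas *Afp* was highest in 2D-iHs (10.8) and 2D-iHEs (8.41).

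*Ahsg* was the other member that rose. It had 25 and 7 counts in 2D-iHs, 4 and 2 in 2D-iHEs, 40 and 47 in iHLOs and 46 and 18 in iHEAs. The groups touched without overlapping in CPM, from 0.0959 to 0.758 in 2D and from 0.758 to 1.68 in 3D. The log2 difference was 2.07 ± 0.50 (SE, n = 4 per group, edgeR adjusted p = 0.00272), and 3.10 without library 1 of 2D-iHs. In 3D it stood at 0.229% of the fetal and 0.0126% of the adult liver level.

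*Afp* fell in 3D. It was at 35.5 and 37.6 CPM in 2D-iHs, at 28.8 and 27.9 CPM in 2D-iHEs, at 16.9 and 19.9 CPM in iHLOs and at 19.1 and 18.5 CPM in iHEAs. Every library in 3D was below every library in 2D, with a log2 difference of -0.83 ± 0.10 (SE, n = 4 per group, edgeR adjusted p = 1.88e-05). Library 1 of 2D-iHs did not stand apart for this gene. By CPM the means were 0.229% of fetal liver in 2D and 0.131% in 3D, and 1061% and 608% of adult liver. With TMM factors the edgeR fit put *Afp* in iHEAs 2.17-fold above adult liver.

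*Gc* and *Rbp4* fell as well. *Gc* had 40 and 24 counts in 2D-iHs, 35 and 22 in 2D-iHEs, 5 and 4 in iHLOs and 14 and 5 in iHEAs. No 3D library reached a 2D library, and the log2 difference was -2.001 ± 0.336 (SE, edgeR adjusted p = 0.000206). *Rbp4* was at 4.85 and 4.83 CPM in 2D-iHs, 6.74 and 5.80 in 2D-iHEs, 2.64 and 2.57 in iHLOs and 5.34 and 2.19 in iHEAs. One iHEA library lay within the 2D range and the other 3 libraries in 3D lay below it, and the log2 difference was -0.82 ± 0.25 (SE, edgeR adjusted p = 0.0112).

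*Alb* did not pass the test between 3D and 2D. It had 210 and 9 counts in 2D-iHs, 3 and 2 in 2D-iHEs, 3 and 16 in iHLOs and 20 and 4 in iHEAs. Apart from library 1 of 2D-iHs, the highest culture library held 0.698 CPM, and 3 of the 8 libraries were at or under the floor. The log2 difference was -2.20 (95% interval -4.84 to 0.43, edgeR adjusted p = 0.115), and without library 1 *Alb* was too low to be tested. Of 15 fits 1 called it, that without library 1 of 2D-iHEs, and the adjusted p ranged from 0.0490 to 0.757. Mean *Alb* in 3D was 0.00322% of fetal liver and 0.000167% of adult liver.

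*Ambp* and *Vtn* were too low in the cultures to be tested. *Ambp* had 12 and 0 counts in 2D-iHs, 1 and 0 in 2D-iHEs, 0 and 2 in iHLOs and 4 and 0 in iHEAs. *Vtn* had 9 and 0 counts in 2D-iHs, 1 and 0 in 2D-iHEs, 0 and 0 in iHLOs and 1 and 8 in iHEAs. Only single libraries passed the floor, library 1 of 2D-iHs for both genes, library 1 of iHEAs for *Ambp* and library 2 of iHEAs for *Vtn*. With 0 counts in both iHLO libraries, *Vtn* was at least 3879-fold lower than in fetal liver and at least 40670-fold lower than in adult liver, against the floor of 3 counts per library.

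The comparison was repeated between cultures set up with the same cell types, on a fit over the 4 culture conditions. Markers of other cell types also differed between iHLOs and 2D-iHs, in both directions. Of 4 tested fibroblast markers 1 was higher and 2 lower, with a summed level of 3.61 to 4.89 CPM in iHLOs and 4.39 to 5.07 CPM in 2D-iHs. Of 6 cholangiocyte markers 2 were higher and 2 lower (1375 to 1448 against 1366 to 1471 CPM), and of 4 tested endothelial markers 3 were higher and 0 lower (626 to 655 against 494 to 496 CPM), while *Cdh5*, the most abundant of them, differed by -0.00. Their part in the results was not tested. Between iHLOs and 2D-iHs 6 of 6 tested members were called, where 72.3% of all genes were. *Ttr* differed by 5.06 ± 0.11, *Ahsg* by 1.55 ± 0.45, *Afp* by -1.02 ± 0.08, *Rbp4* by -0.92 ± 0.29, *Gc* by -2.68 ± 0.46 and *Alb* by -3.34 ± 1.02 on the log2 scale (SE, edgeR adjusted p from 6.90e-13 to 0.0129). Without library 1 of 2D-iHs *Alb* could not be tested and *Rbp4* (-0.93) missed the threshold with an adjusted p of 0.0506, which left 4 calls, with *Ahsg* at 2.62 (adjusted p = 0.00217). Without library 1 or library 2 of iHLOs *Rbp4* also missed it (adjusted p = 0.0559 and 0.0641), as did *Alb* without library 1 of iHLOs (-2.58, adjusted p = 0.0922) and *Ahsg* without library 2 of 2D-iHs (0.97, adjusted p = 0.0803). Between iHEAs and 2D-iHEs 5 of 6 were called, where 70.9% of all genes were. *Ttr* differed by 5.78 ± 0.12, *Ahsg* by 3.42 ± 0.64, *Afp* by -0.61 ± 0.08, *Rbp4* by -0.74 ± 0.28 and *Gc* by -1.51 ± 0.40 (SE, edgeR adjusted p from 5.80e-13 to 0.03005). In this pair the fibroblast markers summed to 3.16 to 4.61 CPM in iHEAs and 13.5 to 14.6 CPM in 2D-iHEs, the cholangiocyte markers to 1726 to 1771 against 1236 to 1344 CPM and the endothelial markers to 533 to 557 against 456 to 460 CPM, and their part was not tested either. The *Rbp4* call was lost without either 2D-iHE library (adjusted p = 0.180 and 0.0546), without library 2 of iHEAs (-0.26, adjusted p = 0.185) and with the replicate block (-0.30, adjusted p = 0.149). *Alb* differed by 2.27 with a 95% interval of -1.68 to 6.21 and did not pass (edgeR adjusted p = 0.281). It was called in 2 of 12 fits, without a filter (adjusted p = 0.000337) and with the replicate block (0.0124), and the ratio of summed counts was 5.13 (95% exact interval 1.92 to 17.2, counting error only). The fitted directions of *Alb* were thus opposite in the pair with library 1 of 2D-iHs and in the pair without it.

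**Figure D4:**
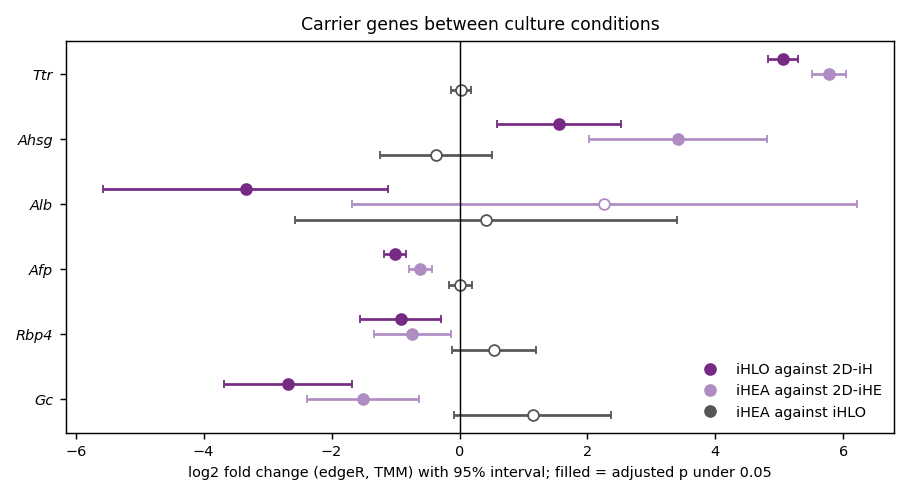
Log2 fold changes with 95% intervals from the edgeR fit over the 4 culture conditions, for the 6 members that could be tested, in 3 comparisons (colors). Filled symbols passed an adjusted p of 0.05. *Ttr* lay at 5.06 and 5.78 in both comparisons of 3D with 2D, *Afp*, *Rbp4* and *Gc* lay below 0 in both, *Alb* changed side (-3.34 and 2.27), and no symbol was filled between iHEAs and iHLOs.

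Addition of iECs was tested in 3D and in 2D. Between iHEAs and iHLOs, 0 of the 6 tested members were called by the edgeR quasi-likelihood test, where 2.26% of all genes were called. DESeq2 also called 0 members. By edgeR 0 members had an unadjusted p under 0.05, where 1702 of all 13409 tested genes did. The intervals were narrow for *Ttr*, with a log2 difference of 0.02 (95% interval -0.14 to 0.18), and for *Afp*, with 0.01 (-0.17 to 0.20). They were wide for *Ahsg* (-0.37, from -1.24 to 0.51), *Rbp4* (0.54, from -0.12 to 1.20), *Gc* (1.14, from -0.09 to 2.37) and *Alb* (0.41, from -2.58 to 3.40), so changes within these intervals could not be detected at this depth and number of libraries. *Rbp4* was at 5.34 CPM in library 1 and 2.19 CPM in library 2 of iHEAs, against 2.64 and 2.57 CPM in iHLOs. Library 1 of iHEAs also stood high in *Hp*, the haptoglobin gene (72.0 against 9.39 CPM in library 2), *Tat*, a tyrosine-degrading aminotransferase gene (18.8 against 2.61 CPM), and *Stra6*, a receptor gene for retinol-binding protein (12.3 against 1.01 CPM). Without library 1 the *Rbp4* difference was -0.27, and without library 2 it was 1.02 and was called. The part of these library differences in the *Rbp4* values was not tested.

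In 2D, 3 of the 6 tested members were called between 2D-iHEs and 2D-iHs, all lower with iECs, where 8.17% of all genes were called. The comparison shares its 2D libraries with those of 3D and 2D above. The fibroblast markers summed to 13.5 to 14.6 CPM in 2D-iHEs and 4.39 to 5.07 CPM in 2D-iHs, with 1 of 4 tested markers called higher (*Col1a1*, 1.96) and 0 lower. Of the 6 cholangiocyte and 4 tested endothelial markers 1 each was lower (*Krt19*, -0.31, and *Tek*, -0.99) and 0 were higher. Of the transcription factors of *Alb* and *Afp*, *Cebpa* was higher (0.81) and *Hnf4a* lower (-0.29). The part of these differences in the member values was not tested. *Afp* was at 28.8 and 27.9 CPM in 2D-iHEs against 35.5 and 37.6 CPM in 2D-iHs, a log2 difference of -0.39 ± 0.08 (SE, edgeR adjusted p = 0.00801). *Ttr* was at 1.91 and 1.49 against 2.58 and 3.05 CPM, a log2 difference of -0.71 ± 0.20 close to the threshold (adjusted p = 0.0495). In both genes the groups did not overlap. Both calls were lost when either 2D-iHE library or library 2 of 2D-iHs was left out, with adjusted p of up to 0.0897 for *Afp* and 0.239 for *Ttr*. Without library 1 of 2D-iHs *Ttr* was lost as well (edgeR adjusted p = 0.113), as it was in a fit over all 14 libraries (0.0838), and *Afp* was the 1 call left (adjusted p = 0.0475). The call for *Alb* (-5.20 ± 1.31, adjusted p = 0.0293) rested on that library, without which *Alb* could not be tested, and was lost without either 2D-iHE library, and DESeq2 gave it no adjusted p. *Ahsg* (-2.23, adjusted p = 0.0844), *Rbp4* (0.36, 0.479) and *Gc* (-0.03, 0.973) did not pass. For *Ahsg* the difference was -1.16 without library 1 of 2D-iHs (adjusted p = 0.608) and was called without library 2 (-2.80, adjusted p = 0.0455).

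Whether the addition of iECs acted differently in 3D and 2D was tested as an interaction. None of the 6 tested members passed the adjusted threshold by edgeR, where 3.14% of all genes were called. An unadjusted p under 0.05 was found for 4 members and for 2034 of all 13409 tested genes. Without a filter 4 members were called, where 901 of 20841 genes were. The interaction was 0.40 ± 0.11 for *Afp* (adjusted p = 0.0874), 0.72 ± 0.21 for *Ttr* (0.0996), 5.61 ± 2.06 for *Alb* (0.200) and 1.87 ± 0.85 for *Ahsg* (0.322). DESeq2 called 1 of them, *Ttr*. Without library 1 of 2D-iHs *Alb* could not be tested, *Ahsg* was at 0.80 (edgeR adjusted p = 0.832), and none of the other tested members was called. Leaving out library 2 of 2D-iHs called 1 member (*Alb*), and leaving out library 2 of iHEAs called 3 (*Alb*, *Afp* and *Ttr*).

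Against the tissues, all 8 members were called between iHEAs and fetal liver, all lower in iHEAs, where 85.5% of all genes were called. They were also all called between iHEAs and adult liver, 7 lower and *Afp* higher, where 84.8% of all genes were called. These comparisons share the iHEA libraries. *Ttr* was the nearest to fetal liver, with 97.5 ± 3.85 CPM in iHEAs against 570 ± 58.5 CPM (SD, n = 2, log2 difference -2.60 ± 0.10, SE). The other 7 members differed from fetal liver by -7.74 for *Rbp4* to -14.72 for *Alb* on the log2 scale. *Afp* in iHEAs was above adult liver in both libraries (19.1 and 18.5 against 3.06 and 3.06 CPM), with a log2 difference of 1.12 ± 0.14 (edgeR adjusted p = 2.67e-06) that ranged from 0.98 to 2.57 over the alternatives. *Alb* in iHEAs was -20.43 ± 0.81 on the log2 scale against adult liver.

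The transcription factors known to act on *Alb* and *Afp* were present in part. Of 14 such genes 9 could be tested between 3D and 2D, and 4 were higher and 2 lower in 3D, with a median of 0.00 beside 0.01 for all tested genes, of which 75.9% were called. *Cebpa*, a C/EBP factor of mature hepatocytes, was at 2.27 to 4.52 CPM in 2D and 14.1 to 16.1 CPM in 3D, beside adult (238 and 231 CPM) and fetal liver (43.9 and 41.1 CPM). *Hnf4a* was at 187 to 236 CPM in all cultures and did not pass between 3D and 2D (log2 difference -0.11, edgeR adjusted p = 0.217). It was called lower in iHLOs than in 2D-iHs (-0.30, edgeR adjusted p = 0.000119). Between iHEAs and 2D-iHEs it did not pass (0.10, adjusted p = 0.0922), and its interaction was called (0.40, adjusted p = 0.00893). *Zbtb20* and *Zhx2*, repressors of *Afp* in the liver after birth, differed in level. *Zbtb20* was at 80.1 to 94.9 CPM in 2D and fell in 3D, where it was at 41.5 to 52.3 CPM (log2 difference -0.97, adjusted p = 1.84e-07), and *Zhx2* had at most 4 counts in any culture library against 399 to 419 in adult liver. *Onecut1* had 0 counts in every culture and fibroblast library. Between adult and fetal liver 13 of 14 could be tested and 13 were higher in adult liver, where 83.7% of all genes were called and 5642 of 14121 were higher, and for *Foxa1* the direction turned when scaled by total counts.

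The genes that flank the albumin family in the genome were described from the same list of 9 that holds *Alb*, *Afp* and *Gc*. Of these 9 genes 6 were tested between 3D and 2D, and 0 were higher and 5 lower, with a median of -1.01, where 38.7% of all genes were higher and 37.2% lower with a median of 0.01. Besides *Afp* and *Gc*, the genes that fell were *Rassf6* (97.1 to 111 CPM in 2D, 44.1 to 48.7 CPM in 3D, log2 difference -1.18), *Cox18* (-0.74) and *Ankrd17* (-0.34), which encode no plasma carriers. *Afm* had at most 8 counts in any culture library and was at 350 and 365 CPM in adult and 31.0 and 27.0 CPM in fetal liver.

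Of 22 other liver plasma protein genes, 10 could be tested between 3D and 2D, and 6 were higher and 2 lower in 3D, with a median of 2.15 beside 0.01 for all tested genes, of which 75.9% were called. The 2 that were lower were *Itih2* (log2 difference -2.15) and *Itih3* (-1.43). *F2*, the prothrombin gene, was at 0.121 to 0.192 CPM in 2D and 1.56 to 2.46 CPM in 3D (log2 difference 3.63). *Orm1*, an acute phase carrier gene, was at 2.12 to 3.12 CPM in 2D and 9.85 to 14.5 CPM in 3D (2.08), and *Trf*, the transferrin gene, was at 0.242 to 0.683 and 1.64 to 3.49 CPM (2.50). *Apoa1*, the main protein of high-density lipoprotein, was at 240 to 353 CPM in every culture library and did not pass (-0.17, edgeR adjusted p = 0.174). *Serpina6*, *Itih4* and *Hpx*, among the highest of the list in adult liver (5970 CPM or more in each library), stayed at 3.21 CPM or less in every culture library. In adult against fetal liver 21 of the 22 were tested and 21 were higher in adult liver, on both scalings, where 83.7% of all genes were called and 5642 of 14121 were higher, or 2282 when scaled by total counts, with a median of 4.79, beside 4.03 for the 8 members and -0.10 for all genes.

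**Figure D5:**
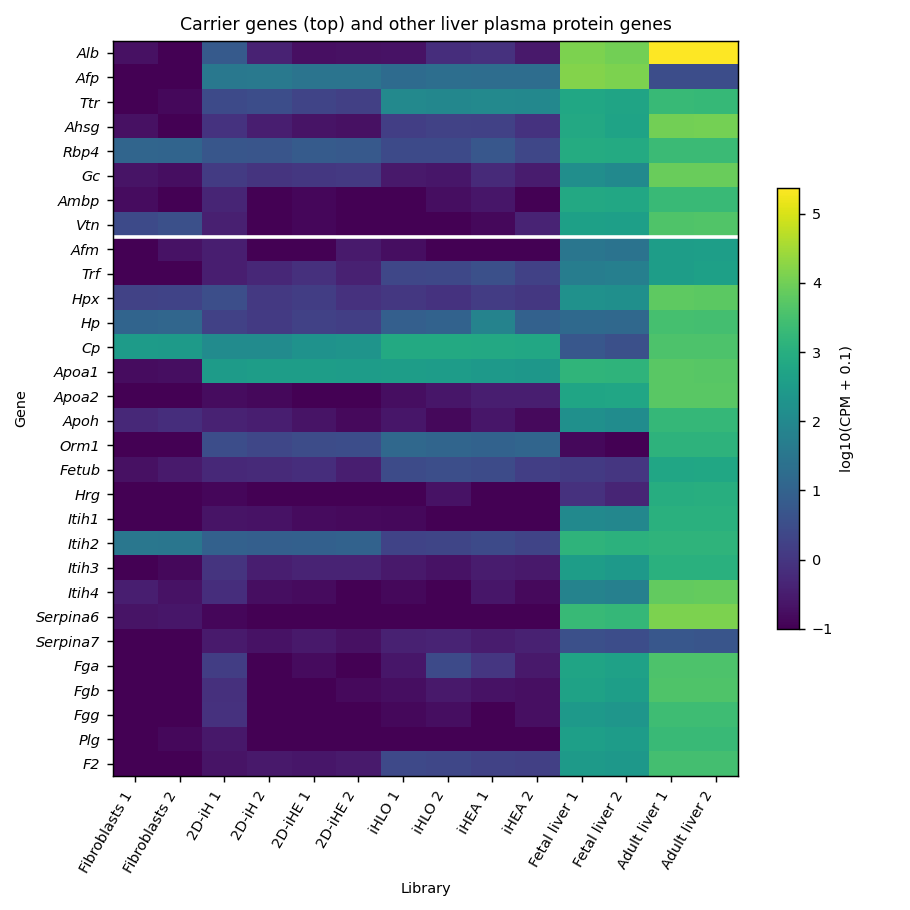
Levels of the 8 carrier genes (above the white line) and 22 other liver plasma protein genes in each of the 14 libraries, as log10(CPM + 0.1) by color. Adult liver was bright for most genes except *Afp* and *Serpina7*, fetal liver was bright for *Alb* and *Afp*, and among the cultures *Ttr*, *Orm1* and *F2* were brighter in 3D while *Apoa1* was at 240 to 353 CPM in all 8 libraries.

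Receptors and handling proteins of the carriers were counted as a further list of 13 genes. Between 3D and 2D 9 were tested, and 3 were higher and 5 lower, with a median of -0.26, where 75.9% of all genes were called with a median of 0.01. The vitronectin receptor subunit genes *Itgav* (-0.88) and *Itgb5* (0.80) went in opposite directions. *Stra6l*, a liver receptor gene for retinol-binding protein, was at 144 and 150 CPM in adult liver and had at most 3 counts in each culture library.

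The pattern of each member over the 14 libraries was compared with 12303 genes that reached 10 CPM in a library, by Pearson's r of log2(CPM + 0.1). These correlations are descriptions over libraries that fall into separate groups of tissues and cultures and share depth and composition. *Alb* was most like *Fgb* and *Fgg* (r = 0.997 and 0.995), *Ahsg* like *Otc* and *Slc6a13* (both 0.995), and *Gc* like *Gcsh* and *Aqp9* (0.995 and 0.994). *Ambp* was most like *Gys2* and *Msr1* (0.998 and 0.997), *Vtn* like *Hpn* and *Kng1* (both 0.994) and *Rbp4* like *Lrrc3* and *Pygl* (0.992 and 0.991). *Afp* was most like *Ifrd2* and *Itpripl1* (0.991 and 0.990), and *Ttr* like *Gjb1* and *Rundc3a* (0.984 and 0.981). Within the members, *Alb* and *Afp* had r = 0.386, *Alb* and *Ttr* 0.761 and *Alb* and *Ambp* 0.993.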

How the data were processed

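RNA-seq counts of 14 libraries from 7 conditions, with 2 libraries each, were analyzed. The deposited table holds whole-number counts per gene symbol without normalization. Per the submitters' processing notes and the study's methods, the authors trimmed reads with Trimmomatic 0.36, mapped them to mouse with HISAT2, used Cufflinks and counted with HTSeq. Multiply aligned reads and strand are not described in the sources used here. Column names were matched to the labels, and the second iHEA column, whose name holds conflicting numbers, was placed by its group. There were 0 columns of other samples.

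Members and gene lists were chosen with earlier results of these data known. Levels are CPM, counts scaled to 1000000 per library. Tests were made with the quasi-likelihood test of edgeR 4.0.16 in R 4.3.3, with TMM factors and Benjamini-Hochberg adjusted p under 0.05 over all genes whose log2(count + 1) averaged 3 or more. The comparison of 3D with 2D used 4 against 4 culture libraries, comparisons among the 4 culture conditions used 8 libraries, and comparisons with tissues or fibroblasts used all 14. The scripts were tested on simulated data. A fold against a group with 0 counts was computed against 3 counts per library. Where 1 to 3 counts remained, summed counts were compared with an exact binomial interval. Alternatives were no filter, a minimum of 5, members added to the tested genes, DESeq2 1.42.0 (size factors and Wald test), other sets of libraries, a replicate block and each library left out, and, chosen after seeing the data, total-count scaling. All 8 members were named, with up to 4 genes per list of highest level or that a result turned on, and the 2 genes most alike each member. Other genes named beside these, such as *Hp*, *Orm1*, *Trf* and *Rassf6*, were chosen after their values were seen. Values of some list genes are not reported here. Promoters were taken from RefSeq tables of GRCm38.p6 and gene positions from GENCODE.

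Library numbers did not pair the libraries, with correlations of -0.045, -0.032 and 0.007 between the differences within equally numbered libraries of the cultures. The 2 libraries of a condition differed by a chi-square per gene of 2.93 to 3.49, 10.9 in iHEAs and 12.7 in fetal liver, where sampling noise gives about 1, so none were counted as copies.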

Additional observations from a re-analysis of the deposited data

Results flagged for a closer look

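Among the groups of 4 culture libraries in 2D and in 3D, the highest or lowest library was set against the others by the gap to its neighbour over the whole range, by Dixon's 95% limit for 4 libraries. Library 1 of 2D-iHs stood apart above the other 2D libraries for *Alb* (0.964, at 6.36 CPM), *Ambp* (0.922, at 0.364 CPM) and *Vtn* (0.896, at 0.273 CPM). Library 1 of iHEAs stood apart above the other 3D libraries for *Rbp4* (0.859, at 5.34 CPM), and library 2 of iHEAs for *Vtn* (0.896, at 0.337 CPM). These were 5 of the 32 gaps examined. How often chance passes the limit is not known here, since each group of 4 joined 2 conditions and many counts were near 0. Library 1 of 2D-iHs was known beforehand to hold liver transcripts, so its gaps describe it again and test nothing new.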

How the results depend on the processing

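Of 840 member fold changes refitted under alternatives, 780 kept their direction and side of the threshold, 24 lost a call, 22 gained one and 14 turned. The number of members called ranged, with 1 library left out, from 5 to 6 between 3D and 2D, 4 to 5 between iHLOs and 2D-iHs and between iHEAs and 2D-iHEs, 0 to 1 between iHEAs and iHLOs, 0 to 2 between 2D-iHEs and 2D-iHs, 0 to 3 in the interaction and 5 to 8 between 2D-iHs and fibroblasts, and stayed at 8 in the 3 comparisons with liver. A filter of at least 5 left 3 members tested and 3 called between 3D and 2D, iHLOs and 2D-iHs, and iHEAs and 2D-iHEs. The interaction gave 4 calls without a filter and 1 by the DESeq2 Wald test. The library numbers did not pair the libraries, and with the replicate block, fitted without the unnumbered library 2 of iHEAs, 1 member was called between iHEAs and iHLOs (*Rbp4*, 0.97) and 4 in the interaction. Between iHEAs and iHLOs, *Afp* turned without a filter (-0.0017) and *Ttr* with the replicate block (-0.017). With 1 library left out, the turning differences there ranged from -0.995 to 2.05 for *Alb*, -0.10 to 0.13 for *Afp*, -0.080 to 0.13 for *Ttr*, -1.03 to 0.052 for *Ahsg* and -0.27 to 1.02 for *Rbp4*. Those of *Gc* between 2D-iHEs and 2D-iHs ranged from -0.27 to 0.29, of *Rbp4* in the interaction from -0.64 to 0.66, and of *Ambp* between 2D-iHs and fibroblasts from -3.00 to 5.38. The DESeq2 Wald test lost *Ambp* between adult and fetal liver (adjusted p = 0.0812). The causes were not tested. Over all genes, calls between iHEAs and iHLOs went from 303 to 881 without a filter, 617 with the block and 93 to 723 with 1 library left out. Calls between 2D-iHEs and 2D-iHs went from 1096 to 1945 with the block and 250 to 426 with 1 library left out, and those of the interaction from 421 to 901, 772 and 129 to 959. Scaling by total counts changed the split of calls between adult and fetal liver from 5642 higher and 6178 lower to 2282 and 10630, and that between iHEAs and adult liver from 6443 higher and 5530 lower to 10522 and 2533. In the cultures depth limited *Ambp* and *Vtn*, and *Alb*, which had 20 counts or fewer in each culture library but library 1 of 2D-iHs.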
